A study of Mus musculus with 9 samples.

Results

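Transcripts of 9 genes of the Hedgehog pathway (Gli1, Gli2, Gli3, Ptch1, Smo, Hhip, Cdon, Boc and Gas1) were examined in cells sorted from mouse forelimb buds at E10.5, when muscle progenitors have migrated into the bud. The rule takes the genes by name and uses no measured value, though the names were picked with earlier results of these arrays known, and they are 9 of 18193 genes that had a probe set annotated with a single gene symbol. Together they have 24 probe sets, 1 for Gli1, 2 each for Gli2 and Cdon, 3 each for Gli3, Ptch1, Smo, Boc and Gas1 and 4 for Hhip. No member was left out for a low value. The brightest probe set on average, called the main probe set, stands for a gene, and the others serve as a check.

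RNA was hybridised to 9 Affymetrix expression arrays, 3 for each of 3 groups. PAX3-FKHR GFP+ are the GFP positive cells of Pax3PAX3-FKHR/GFP embryos, in which the Pax3 allele that does not carry GFP encodes the DNA binding part of Pax3 joined to the activation domain of FKHR, with an IRESnlacZ reporter, so that no wild type Pax3 allele is left. That allele was conditional and was recombined with PGK-Cre, which acts throughout the embryo and not only in muscle progenitors. Control GFP+ are the GFP positive cells of Pax3GFP/+ embryos, which keep 1 wild type Pax3 allele beside the GFP allele. GFP- are cells of the buds without GFP. The labels give these no genotype. The study's text takes them from Pax3GFP/+ embryos, while its array methods also list a Pax3+/+ group without saying which cells it holds. The targeted Pax3 lines were kept on a C57BL6/DBA2 background, buds of several embryos were pooled, and nothing in the labels says that the 3 replicates of a group came from separate litters, so the p-values measure the spread between these samples.

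Hedgehog ligands bind Ptch1, which otherwise holds the membrane protein Smo inactive. Released Smo acts through the primary cilium on the Gli transcription factors, of which Gli1 is an activator and itself a target, Gli2 is mostly an activator and Gli3 mostly a repressor. Cdon, Boc and Gas1 are co-receptors that help the ligand to reach Ptch1, while Hhip binds the ligand and keeps it from the receptor. Ptch1, Hhip and Gli1 are widely used as readouts of the pathway because they are induced by it in many tissues. In the limb bud Shh is made by posterior mesenchyme, the zone of polarizing activity, and acts on the patterning of the mesenchyme as well as on the muscle progenitors that migrate in.

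Hhip and Cdon were the members that differed between the PAX3-FKHR GFP+ and control GFP+ cells, and the stretches around their transcription starts are shown for that reason. Both are 300 bases of the RefSeq annotation of GRCm38.p6, 250 before the start and 50 after it, written 5′ to 3′ on the strand of the gene. Capitals in Cdon mark the homeodomain core ATTA or TAAT, and capitals in Hhip mark GTCAC or GTGAC, part of the sequence bound by paired domains. Cdon lies at chr9:35451826-35452125 on the + strand and Hhip at chr8:80057959-80058258 on the - strand.
Cdon: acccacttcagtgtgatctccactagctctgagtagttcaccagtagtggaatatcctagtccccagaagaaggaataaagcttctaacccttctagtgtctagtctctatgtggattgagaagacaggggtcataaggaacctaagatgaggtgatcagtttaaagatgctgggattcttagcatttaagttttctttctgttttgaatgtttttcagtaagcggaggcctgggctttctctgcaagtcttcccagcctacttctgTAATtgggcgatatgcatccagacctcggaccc
Hhip: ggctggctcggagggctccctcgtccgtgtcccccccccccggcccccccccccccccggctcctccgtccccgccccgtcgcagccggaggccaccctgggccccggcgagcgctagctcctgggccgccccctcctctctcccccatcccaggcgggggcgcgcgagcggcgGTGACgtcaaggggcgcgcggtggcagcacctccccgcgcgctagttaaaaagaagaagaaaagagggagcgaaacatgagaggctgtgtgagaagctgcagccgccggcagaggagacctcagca

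The Hhip stretch was 73.7% G and C and the Cdon stretch 44.7%. A promoter entry was matched for 7 of the 9 members, all but Gli1 and Boc. The Gli motif GACCACCCA, or TGGGTGGTC on the other strand, was in 0 of these 7 stretches and in 0.253% of 32851 stretches of the same length. GTCAC or GTGAC was in the Hhip stretch alone of the 7 and in 45.6% of all stretches, and ATTA or TAAT was in Cdon and Gli3 and in 58% of all. The motifs of 4 and 5 letters were added after the expression values were known. These matches describe the letters of short windows and are not evidence of binding.

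Before the hedgehog genes, the sorts were checked. Pax3 itself, the targeted gene, was at 7.15, 6.83 and 7.33 in PAX3-FKHR GFP+ cells, at 9.92, 8.94 and 10.22 in control GFP+ cells and at 5.17, 5.14 and 4.77 in GFP- cells, on the RMA log2 scale used for every level given. Its order across the groups is that of the labels, though where the probe set lies relative to the altered part of the gene was not determined. Of 12 limb muscle progenitor markers measured, 11 were higher in control GFP+ than in GFP- cells, among them Lbx1, whose log2 fold change was 5.02 (limma adjusted p = 1.38e-05). Of 20 limb mesenchyme markers, 14 were lower, among them Prrx1 at -1.91 (adjusted p = 0.00215). The arrays correlated with each other by 0.961 to 0.993 over all probe sets, and their medians ran from 5.08 to 5.13. Control GFP+ replicate 3 had the lowest weight in a fit with array weights, 0.236, against 0.604 to 2.69 for the others.

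A log2 fold change is the difference between group means from 1 limma fit of all 9 arrays, with the standard error of that fit. A gene was called higher or lower where its p, adjusted by Benjamini and Hochberg over 45037 probe sets, was under 0.05 and its log2 fold change was 0.5 or more in size. Of the 9 members, 2 were called higher and 0 lower in PAX3-FKHR GFP+ against control GFP+ cells, where 0.61% of all genes were called higher and 0.203% lower. At an unadjusted limma p under 0.05 the count was 3 higher and 0 lower, and by the local pooled error test it was 2 and 0. Shares of all genes by these criteria are not given. Counts by them, here and below, therefore cannot be set against a background. By the adjusted limma call, 1 member was higher and 2 were lower in control GFP+ against GFP- cells, against 2.79% and 1.93% of all genes. In PAX3-FKHR GFP+ against GFP- cells 1 was higher and 1 lower, against 3.9% and 2.79%. The median log2 fold changes of the 9 members were 0.16, -0.19 and -0.07 in these comparisons, and those of all genes were -0.03, 0.08 and 0.05. The comparisons share their groups pairwise and are not independent of each other. In each of them, fewer cells of a type and less RNA per cell cannot be told apart in these bulk samples.

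**Figure D1:**
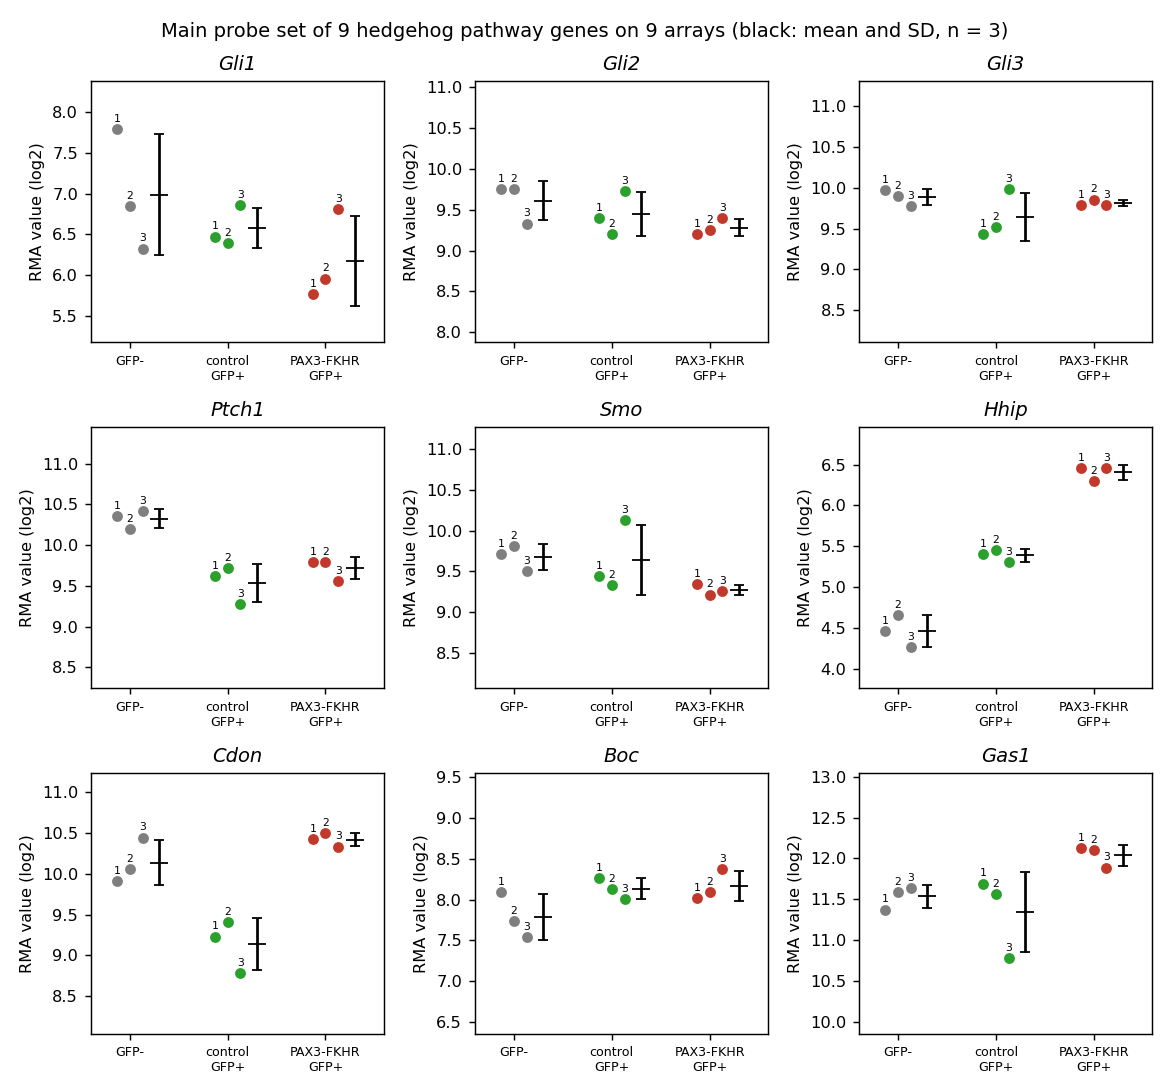
RMA values (log2, vertical axis, the same span in every panel) of the main probe set of each member on the 3 GFP- (grey), 3 control GFP+ (green) and 3 PAX3-FKHR GFP+ (red) arrays, with replicate numbers and, in black, the mean and SD of each group. The 3 groups stand apart from each other for Hhip, with PAX3-FKHR GFP+ between 6.30 and 6.46 and GFP- between 4.26 and 4.66, while Gli1 spreads from 6.32 to 7.79 within the GFP- cells alone.

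The ligand antagonist Hhip was the member with the clearest order of the groups. Its main probe set read 6.46, 6.30 and 6.45 in PAX3-FKHR GFP+ cells, 5.41, 5.45 and 5.30 in control GFP+ cells and 4.46, 4.66 and 4.26 in GFP- cells. No group overlapped another, and the GFP- values lay below the arrays' medians, where signals are dim. The means were 6.40 ± 0.09, 5.39 ± 0.08 and 4.46 ± 0.20 (SD, n = 3 each). With PAX3-FKHR, Hhip was 2.03-fold higher than in control GFP+ cells (log2 fold change 1.02, standard error 0.13, 95% interval 0.73 to 1.31, limma adjusted p = 0.00712). Within the replicate numbers 1, 2 and 3 the same difference was 1.05, 0.85 and 1.15. Control GFP+ cells were 1.90-fold above GFP- cells (log2 fold change 0.93, standard error 0.13, adjusted p = 0.0029), and PAX3-FKHR GFP+ cells 3.85-fold above them (log2 fold change 1.94, standard error 0.13, adjusted p = 1.7e-05).

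The other 3 probe sets of Hhip were dimmer. In each of them all PAX3-FKHR GFP+ arrays were above all control GFP+ arrays. The log2 differences were 0.59 (adjusted p = 0.331) for the second, 0.69 (adjusted p = 0.365) for the third and 0.87 (adjusted p = 0.0452) for the dimmest, so that 2 of the 4 Hhip probe sets were called in that comparison. All 4 were called higher in PAX3-FKHR GFP+ than in GFP- cells, by 1.11 to 1.94, and 2 of 4 in control GFP+ than in GFP- cells. The second of these probe sets read 5.59, 5.51 and 6.10 with PAX3-FKHR, 5.08, 5.30 and 5.04 in the control and 4.17, 4.55 and 4.26 without GFP. The call of the main probe set held in 21 of 21 alternative analyses of PAX3-FKHR GFP+ against control GFP+ cells, with adjusted p from 0.00163 to 0.0404. Hhip, on its main and second probe sets, stands in gene tables that the study drew from these same arrays, so its direction here is not independent evidence.

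The receptor Ptch1 separated GFP+ from GFP- cells but not the GFP+ groups from each other. Its values were 9.80, 9.79 and 9.56 with PAX3-FKHR, 9.62, 9.72 and 9.28 in control GFP+ cells and 10.36, 10.19 and 10.42 in GFP- cells. The GFP+ groups overlapped each other, and both were below every GFP- array. Control GFP+ cells were 1.73-fold lower than GFP- cells (log2 fold change -0.79, standard error 0.15, 95% interval -1.11 to -0.47, adjusted p = 0.0109). PAX3-FKHR GFP+ cells were 1.53-fold lower than GFP- cells (log2 fold change -0.61, adjusted p = 0.0313), a call that was lost when any single array of that comparison was left out (adjusted p from 0.055 to 0.112) and in the local pooled error test (adjusted p = 0.191). That test also ended the call for control GFP+ against GFP- cells (adjusted p = 0.204), as did a block for replicate number in a fit of these 6 arrays (adjusted p = 0.0969). Between the GFP+ groups the difference was 0.18 (95% interval -0.14 to 0.50, adjusted p = 0.823).

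On the second Ptch1 probe set the GFP- cells read 6.15, 5.95 and 6.01. The PAX3-FKHR GFP+ cells read 4.78, 4.54 and 4.91 there and the control GFP+ cells 5.14, 4.31 and 4.63. The log2 difference from GFP- cells was -1.34 for control GFP+ (standard error 0.19, adjusted p = 0.00339) and -1.29 for PAX3-FKHR GFP+ cells (adjusted p = 0.00295), both called lower. The remaining one lay between 4.17 and 4.66 on all arrays and was not called. The order of the groups was thus not that of Hhip: Ptch1 was highest where Hhip was lowest.

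Smo, which transmits the signal inward, was not called in any comparison. Its main probe set read 9.34, 9.22 and 9.26 with PAX3-FKHR, 9.45, 9.33 and 10.13 in control GFP+ cells and 9.71, 9.81 and 9.50 in GFP- cells. Control replicate 3 was the highest of the 9 arrays. PAX3-FKHR GFP+ minus GFP- was -0.40 (95% interval -0.84 to 0.03, adjusted p = 0.290), with all PAX3-FKHR GFP+ arrays below all GFP- arrays on each of the 3 Smo probe sets, at adjusted p = 0.139 and 0.212 for the other two. The difference between the GFP+ groups was -0.36 (95% interval -0.80 to 0.07, adjusted p = 0.764).

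**Figure D2:**
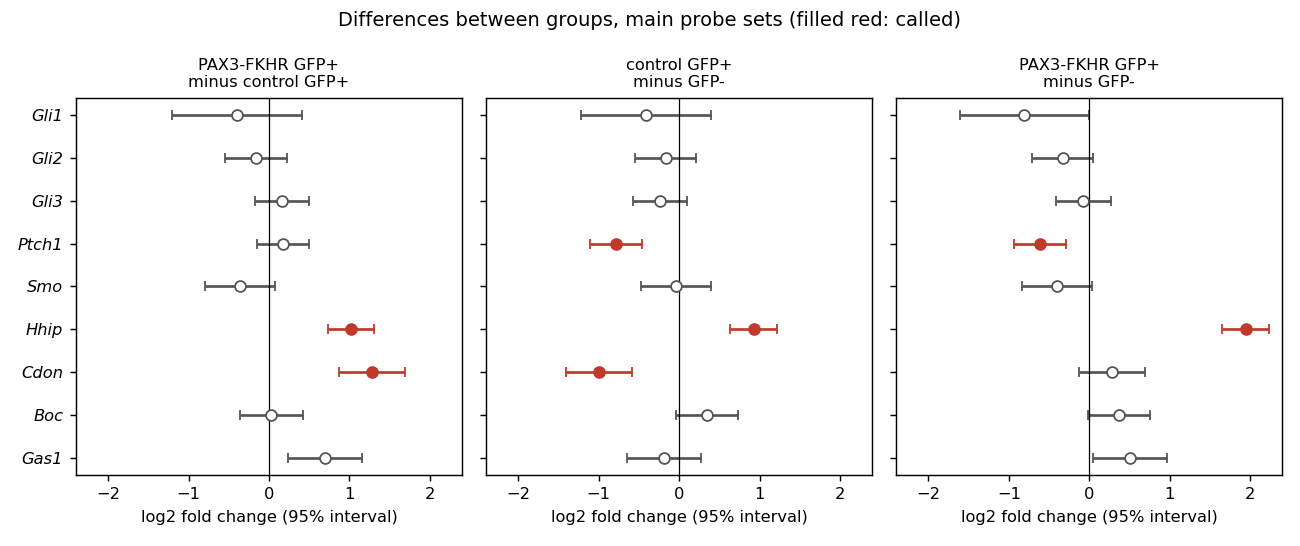
Log2 fold change of each member's main probe set (point) with its 95% interval from the limma fit (bar) in 3 comparisons; filled red marks a gene called higher or lower. Hhip lies to the right of 0 in all 3 panels, Ptch1 to the left where GFP- cells are compared, and Cdon at 1.28 with PAX3-FKHR against -0.996 for control GFP+ minus GFP- cells.

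Among the co-receptors, Cdon differed most. It read 10.42, 10.495 and 10.33 in PAX3-FKHR GFP+ cells, 9.23, 9.40 and 8.78 in control GFP+ cells and 9.91, 10.06 and 10.44 in GFP- cells. The control GFP+ cells were thus the low group, and the PAX3-FKHR GFP+ cells lay in and above the range of the GFP- cells. Cdon was 2.42-fold higher with PAX3-FKHR than in the control (log2 fold change 1.28, standard error 0.18, 95% interval 0.87 to 1.69, adjusted p = 0.0140), by 1.19, 1.09 and 1.55 within the replicate numbers. Control GFP+ cells were 1.99-fold below GFP- cells (log2 fold change -0.996, standard error 0.18, adjusted p = 0.0112). PAX3-FKHR GFP+ and GFP- cells differed by 0.28 (95% interval -0.13 to 0.69, adjusted p = 0.449), which did not pass.

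The call of Cdon with PAX3-FKHR was lost when PAX3-FKHR GFP+ replicate 1 (adjusted p = 0.0674), 2 (adjusted p = 0.0838) or 3 (adjusted p = 0.0560) or control GFP+ replicate 1 (adjusted p = 0.0536) was left out, while the difference stayed between 1.24 and 1.32 in these fits. The low value for control GFP+ cells against GFP- cells was called whichever of the 6 arrays was left out, but not with the local pooled error test (adjusted p = 0.123) or with the replicate block on the 6 arrays (adjusted p = 0.117). The second Cdon probe set, between 4.81 and 5.26 on all arrays and so near or below their medians, was not called (0.23, adjusted p = 0.758). Averaged over both probe sets, Cdon was at 0.75 with PAX3-FKHR against the control (adjusted p = 0.00759) and at -0.53 in the control against GFP- cells (adjusted p = 0.0177), both called. Cdon too is listed by the study in a table made from these arrays.

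Gas1, a membrane-anchored co-receptor, had a like pattern between the GFP+ groups that did not pass the test. The values were 12.12, 12.10 and 11.89 with PAX3-FKHR, 11.69, 11.56 and 10.78 in control GFP+ cells and 11.37, 11.59 and 11.64 in GFP- cells. All PAX3-FKHR GFP+ arrays were above all arrays of the other groups, and control GFP+ replicate 3 was the lowest of the 9. The difference from control GFP+ cells was 0.69 (standard error 0.21, 95% interval 0.24 to 1.15, adjusted p = 0.348), and 0.71 on the second probe set (adjusted p = 0.158). It was not called in any of 21 alternatives, and without control GFP+ replicate 3 it was 0.41 (adjusted p = 0.321). Against GFP- cells it was 0.50 (95% interval 0.05 to 0.96, adjusted p = 0.197), which passed with array weights (adjusted p = 0.0338) and when these 6 arrays alone were fitted (adjusted p = 0.0282).

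Counted over main probe sets, the PAX3-FKHR GFP+ and control GFP+ arrays did not overlap for 3 of 9 members, Hhip, Cdon and Gas1, with PAX3-FKHR higher in each and lower in 0, where 5.42% and 8.88% of all genes did so. Control GFP+ arrays all lay above the GFP- arrays for Hhip and below them for Ptch1 and Cdon, against 17.2% and 6.96% of all genes. PAX3-FKHR GFP+ arrays all lay above the GFP- arrays for Hhip and Gas1 and below them for Ptch1 and Smo, against 17.8% and 10.1% of all genes.

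Boc, a relative of Cdon, was not called in any comparison. It read 8.02, 8.10 and 8.37 with PAX3-FKHR, 8.27, 8.13 and 8.01 in control GFP+ cells and 8.10, 7.74 and 7.54 in GFP- cells. The GFP+ groups covered the same range, and their difference of 0.03 (95% interval -0.36 to 0.42, adjusted p = 0.983) changed sign between analyses. Both GFP+ groups had means above the GFP- mean, by 0.37 (adjusted p = 0.267) with PAX3-FKHR and by 0.34 (adjusted p = 0.287) in the control. On the second probe set, control GFP+ minus GFP- was 0.69 with no overlap of the arrays (adjusted p = 0.0893).

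**Figure D3:**
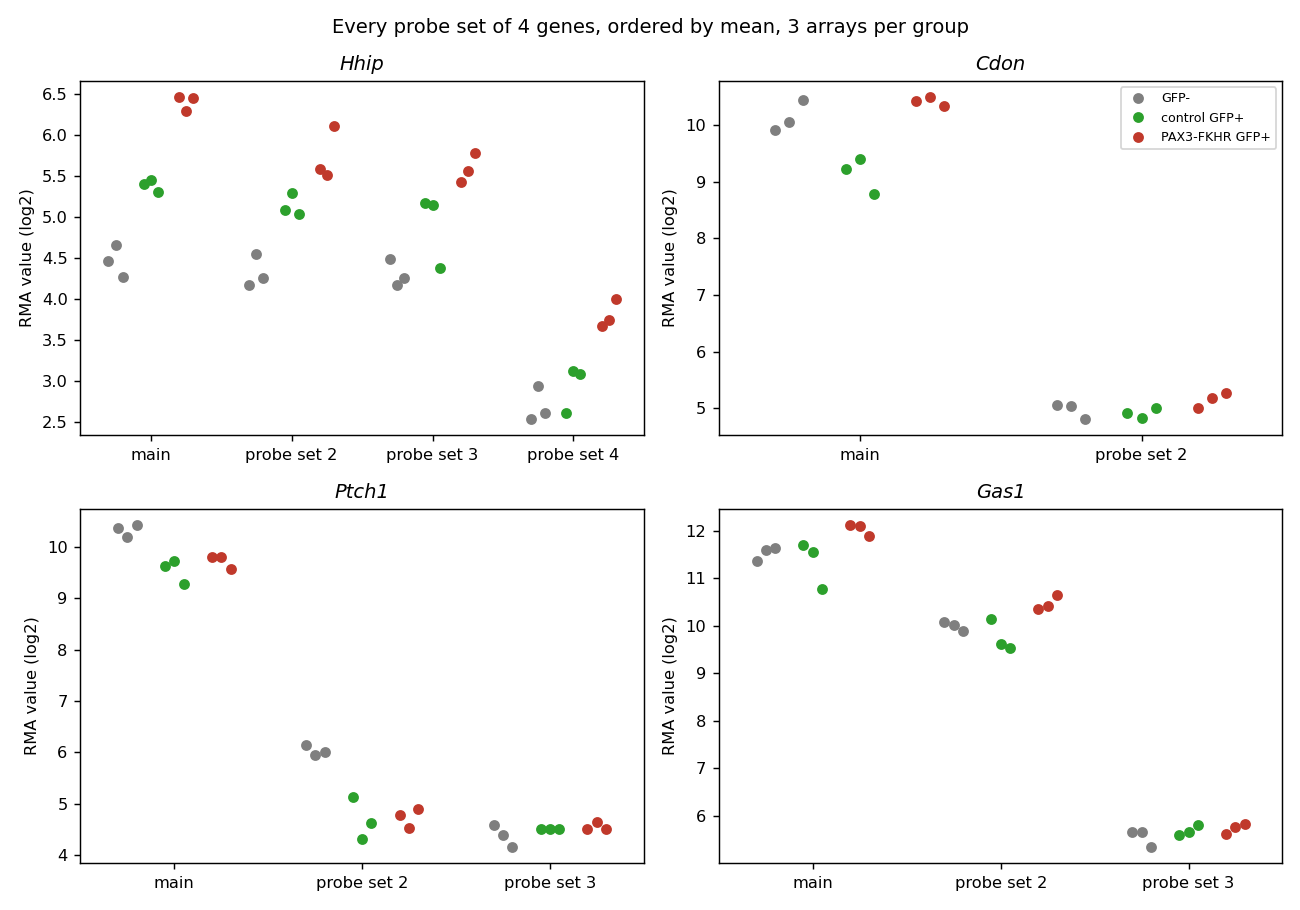
RMA values (log2, vertical axis) on every array for each probe set of Hhip, Cdon, Ptch1 and Gas1, in order of mean level from left to right, with GFP- in grey, control GFP+ in green and PAX3-FKHR GFP+ in red. All 4 Hhip probe sets have the PAX3-FKHR GFP+ arrays on top. On the main Cdon probe set these arrays are above the control GFP+ arrays but overlap the GFP- arrays. The main and second Ptch1 probe sets have the GFP- arrays on top. On the second Cdon probe set, between 4.81 and 5.26, and the third Ptch1 and Gas1 probe sets, the groups overlap.

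None of the Gli factors was called in any comparison. Gli1, whose transcript is used as a readout of the pathway, read 5.77, 5.96 and 6.80 with PAX3-FKHR, 6.47, 6.39 and 6.86 in control GFP+ cells and 7.79, 6.84 and 6.32 in GFP- cells. The groups overlapped, with SDs of 0.55 with PAX3-FKHR, 0.25 in control GFP+ cells and 0.74 in GFP- cells. PAX3-FKHR GFP+ and control GFP+ cells differed by -0.40 (95% interval -1.20 to 0.41, adjusted p = 0.841). PAX3-FKHR GFP+ minus GFP- was -0.81 (standard error 0.36, adjusted p = 0.246) and was called in 1 of 21 alternatives, the local pooled error test (adjusted p = 0.0278), which called Gli1 in place of Ptch1.

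Gli2 read 9.20, 9.25 and 9.40 with PAX3-FKHR, 9.40, 9.20 and 9.73 in control GFP+ cells and 9.75, 9.76 and 9.33 in GFP- cells. For Gli3 the values were 9.79, 9.85 and 9.79, then 9.43, 9.52 and 9.98, then 9.97, 9.90 and 9.78. Each group of both genes overlapped the others on the main probe set. Between the GFP+ groups the difference was -0.16 for Gli2 (95% interval -0.54 to 0.22, adjusted p = 0.864) and 0.16 for Gli3 (95% interval -0.17 to 0.50, adjusted p = 0.842). On the second Gli3 probe set the PAX3-FKHR GFP+ arrays were all above the control GFP+ arrays, by 0.42 (adjusted p = 0.708).

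Genes with a course over the 9 arrays most like that of a readout were sought among 1090 genes whose main probe set had a mean of at least 5 and an SD of at least 0.5. Ptch1 was most like Smoc2, Gpc6 and Sox6, each with a Pearson correlation of 0.99. Hhip was most like Tppp3, at 0.99, and Ryr1 and Scn3b, both at 0.98. Gli1 was most like Rcor2 and Spen, both at 0.94, and Acvr2b, at 0.93. The 9 points of each correlation share the same arrays and fall into 3 groups, so these values describe likeness of course only.

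Other genes of the pathway were taken from 4 lists, with 56 genes measured in all. With PAX3-FKHR against control GFP+ cells, 0 were higher and 2 lower by limma, with a median of -0.09. At an unadjusted p under 0.05 there were 6 higher and 7 lower, and the local pooled error test called 0 and 3. In control GFP+ against GFP- cells 3 were higher and 13 lower, with a median of -0.08, and in PAX3-FKHR GFP+ against GFP- cells 3 were higher and 16 lower, with a median of -0.05. The shares over all genes for the adjusted limma calls in the same comparisons, and the medians, are those given for the members. Of the 56 genes, 4 are also among the limb mesenchyme markers. Over 21 alternatives the numbers lower ran from 1 to 3, from 7 to 14 and from 12 to 17 in the same order, a check added after the values were seen.

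Of the ligands, Shh was the one that differed. It read 6.89, 6.37 and 6.32 with PAX3-FKHR, 6.80, 6.62 and 5.65 in control GFP+ cells and 8.31, 8.73 and 8.66 in GFP- cells. The GFP+ groups overlapped (difference 0.17, adjusted p = 0.917), and both lay below every GFP- array, with log2 fold changes of -2.21 for the control (standard error 0.29, adjusted p = 0.00186) and -2.04 with PAX3-FKHR (adjusted p = 0.00202). Averaged over the gene's probe sets these were -1.07 and -0.95, both still called. Ihh lay between 3.47 and 4.15 and Dhh between 4.27 and 5.30 on all arrays, with no call. Scube2, which helps to release the ligand and was dim here, read 4.34, 4.33 and 5.21 in control GFP+ cells and from 3.29 to 3.64 in the other groups. It was called lower in PAX3-FKHR GFP+ cells (log2 fold change from control GFP+ cells -1.10, standard error 0.20, adjusted p = 0.0495), a difference called in 10 of 19 alternatives, which include the replicate block on these 6 arrays (adjusted p = 0.0423) but not the block on all arrays (adjusted p = 0.0605). In control GFP+ cells Scube2 was higher than in GFP- cells by 1.21 (adjusted p = 0.0069), whereas Scube1 and Scube3 were lower there.

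The list of surface binding proteins had 6 genes measured and is not limited to proteins that bind the ligand. By transcript, 1 of these 6 genes was higher and 3 were lower in the control GFP+ cells when set against GFP- cells. Sulf1, which trims heparan sulphate, was the higher one (0.78, adjusted p = 0.025) and the glypicans Gpc3, Gpc4 and Gpc6 the lower ones. Sulf1 read 9.16, 9.24 and 9.09 with PAX3-FKHR, 8.38, 8.70 and 8.03 in the control and 7.50, 7.56 and 7.69 without GFP. Its arrays were in the same order of groups as those of Hhip and did not overlap. PAX3-FKHR GFP+ minus GFP- was 1.58 (standard error 0.17, adjusted p = 4.56e-04), but PAX3-FKHR GFP+ minus control GFP+, at 0.79, did not pass (adjusted p = 0.113). Sulf1 was called in 11 of 21 alternatives for control GFP+ against GFP- cells, and not with the mean of all probe sets (0.51, adjusted p = 0.131). It is also in a table of the study made from these arrays.

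The 19 genes measured from the list of signal transduction, which is not limited to genes that pass the signal on, were the flattest list. By limma 0 were called between the GFP+ groups (median -0.08) and 0 between control GFP+ and GFP- cells (median -0.05), where 2 and 2 had an unadjusted p under 0.05. Against GFP- cells, Prkaca, a catalytic subunit of protein kinase A, was higher with PAX3-FKHR by 0.74 (adjusted p = 0.00662) and Evc, a ciliary partner of Smo, was lower, at -0.67 (adjusted p = 0.00865). The main probe set of Prkaca ends in _x_at, a kind that a filter among the alternatives leaves out. Neither gene was followed singly through the alternatives.

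**Figure D4:**
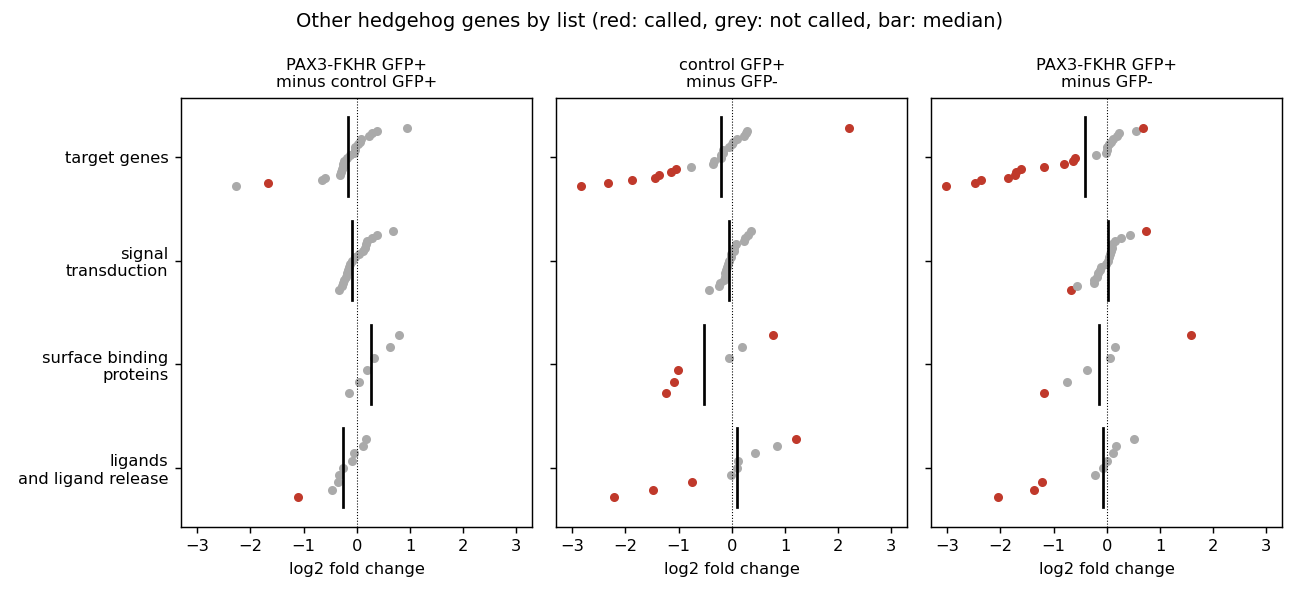
Log2 fold change (horizontal axis) of each other hedgehog gene by list, red where called and grey where not, with a black bar at the list's median, in 3 comparisons. Most red points lie left of 0 in the panels with GFP- cells, in the target genes above all (7 lower of 22 for control GFP+, 11 lower for PAX3-FKHR GFP+), while the signal transduction genes gather near 0.

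Of 22 target genes measured, 0 were higher and 1 was lower with PAX3-FKHR than in control GFP+ cells. Grem1, an antagonist of BMP signalling, was at 7.83, 7.70 and 7.53 with PAX3-FKHR and at 7.05, 6.49 and 6.66 in the control, with no overlap. Its log2 difference of 0.95 did not pass (adjusted p = 0.127) except with the replicate block on these 6 arrays (adjusted p = 0.0392), where it was the 1 target called higher. Osr1, also a limb mesenchyme marker, had the largest fall of the targets, -2.27, which did not pass by limma (adjusted p = 0.0736). It read 4.37, 4.62 and 4.41 with PAX3-FKHR and 6.50, 5.82 and 7.89 in the control, with no overlap. The gene called lower was Foxc2, a factor of paraxial mesoderm and sclerotome, at 5.27, 5.92 and 6.06 with PAX3-FKHR, at 7.30, 7.47 and 7.47 in the control and at 5.47, 5.28 and 4.86 without GFP. The control GFP+ cells were the high group, and the other groups overlapped. With PAX3-FKHR it fell by 1.66 on the log2 scale against the control (standard error 0.22, adjusted p = 0.00923), a change called in 21 of 21 alternatives. Control GFP+ minus GFP- was 2.21 (adjusted p = 4.17e-04). Foxc2 is also among the sclerotome markers and in a table the study drew from these arrays.

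Against GFP- cells, 7 targets were lower and 1 higher in control GFP+ cells, and 11 were lower and 1 higher with PAX3-FKHR. Hand2, a factor of posterior mesenchyme, read 7.97, 7.49 and 7.16 with PAX3-FKHR, 7.69, 7.62 and 7.41 in the control and 10.29, 9.99 and 9.44 without GFP. Its log2 fold change from GFP- cells was -2.33 in control GFP+ (adjusted p = 6.01e-04) and -2.37 in PAX3-FKHR GFP+ cells (adjusted p = 3.43e-04). Sall1 was at -1.44 (adjusted p = 6.2e-04) and -1.71 (adjusted p = 1.22e-04), and Pax1, a sclerotome factor, at -1.88 (adjusted p = 0.00139) and -1.86 (adjusted p = 9.62e-04), all called lower. Averaged over each gene's probe sets, Hand2 was at -0.80 and -0.95 and Pax1 at -1.18 and -1.10, still called. Osr2 and the posterior gene Hoxd11 were also lower in both, with log2 fold changes of -1.04 and -1.36 in the control. Osr2 was at -0.55 in the control and -0.63 with PAX3-FKHR by the mean of all probe sets, both called. Foxf2, by 0.68 (adjusted p = 0.0151), was the one target higher with PAX3-FKHR than in GFP- cells. It was dim, at 3.99, 4.29 and 4.36 with PAX3-FKHR and 3.37, 3.54 and 3.68 without GFP, all below the arrays' medians.

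Markers of other cells moved with the comparisons against GFP- cells. The mean deviation of 20 limb mesenchyme markers from their level over the 9 arrays was 0.80 to 1.21 in GFP- cells, -0.56 to -0.27 in control GFP+ cells and -0.79 to -0.48 with PAX3-FKHR. The 12 muscle progenitor markers lay at -2.23 to -1.93, 1.18 to 1.23 and 0.79 to 1.04 in the same order. Neural crest markers, of which 4 of 8 were higher and 2 lower in control GFP+ cells (median 1.49), lay at -0.89 to -0.44 in GFP- cells, -0.32 to 0.91 in the control and -0.16 to 0.74 with PAX3-FKHR. Of 12 ectoderm markers, 3 were lower in control GFP+ cells (median -1.02). Among the GFP- arrays, replicate 1 stood apart for ectoderm (0.04 against 0.73 and 1.17) and for 9 blood markers (-0.53 against 1.604 and 2.18). Without it, control GFP+ minus GFP- was 0.93 for Hhip (adjusted p = 0.0154), -0.77 for Ptch1 (adjusted p = 0.0413), -1.11 for Cdon (adjusted p = 0.0199) and -2.34 for Shh (adjusted p = 0.00699), each still called. The part of these cell types in the differences of Ptch1, Cdon, Hhip, Shh and the target genes between GFP+ and GFP- cells was not tested. Between the GFP+ groups, 0 of 20 mesenchyme and 0 of 8 neural crest markers were called, 1 of 12 muscle progenitor markers (Pax3 itself) and 1 of 11 sclerotome markers (Foxc2) was lower, and 1 of 12 ectoderm markers, Fgf8, was higher (1.14, adjusted p = 0.00712). At an unadjusted limma p under 0.05, 5 of the mesenchyme and 2 of the neural crest markers differed. So did 5 of the muscle progenitor markers, 2 higher and 3 lower with PAX3-FKHR, Pax3 included. Of the sclerotome markers, 1 was higher and 2 were lower, Foxc2 included. The deviations of the sclerotome list were -0.08 to 0.16 with PAX3-FKHR and 0.04 to 0.10 in the control. These means join opposite changes, since its log2 fold changes ran from -1.66 to 1.75. Of 10 endothelial markers, 0 were called in any comparison, with 3 at an unadjusted p under 0.05 in control GFP+ against GFP- cells alone. Of the blood markers, Klf1 was lower in both GFP+ groups than in GFP- cells and Gata1 with PAX3-FKHR.

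**Figure D5:**
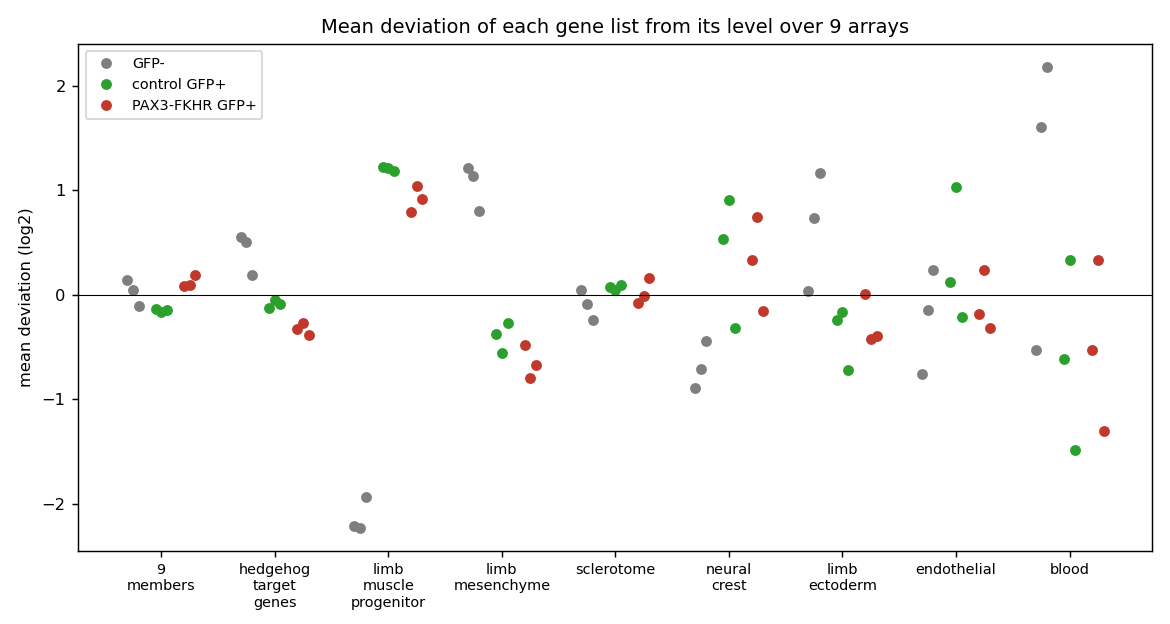
Mean deviation (log2, vertical axis) of each gene list from its own level over the 9 arrays, 1 point per array, with GFP- in grey, control GFP+ in green and PAX3-FKHR GFP+ in red. The 9 members stay within -0.16 and 0.19 on all arrays, while mesenchyme and muscle progenitor markers part GFP- from GFP+ cells. The target genes run from 0.19 to 0.55 in GFP- cells, from -0.13 to -0.05 in control GFP+ cells and from -0.38 to -0.27 with PAX3-FKHR. The target and mesenchyme lists share 4 genes.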

How the data were processed

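GFP+ and GFP- cells of forelimb buds were sorted by flow cytometry, and their RNA went through a two-cycle amplification. The deposited values are log2 values per probe set that the authors made with RMA, which corrects background, brings the arrays to a common distribution and summarises the probes of a set. The version is not given in the sources used here. RMA can shrink the differences of dim probe sets. The calls of absent probe sets were not used here.

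After 64 array controls were set aside, 45037 probe sets were tested, of which 34945 carry 1 gene symbol, 932 several and 9160 none. The fit used limma 3.58.1 (R 4.3.3) on all 9 arrays, with a trend of the spread on intensity and a Benjamini-Hochberg adjustment over all probe sets for each of 3 contrasts. The local pooled error test of the study was rebuilt from 100 bins of intensity, smoothed by a spline of 10 degrees of freedom. Both tests were tested on simulated data. Precision is limited by the 3 arrays of each group, and an exact permutation test of 3 arrays against 3 could not go below p = 0.1.

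All members were named, with all their probe sets. Of the other hedgehog genes, those called were named, up to 6 per contrast by smallest adjusted p, with Shh, Ihh and Dhh, and for Gli1, Ptch1 and Hhip the 3 genes of highest correlation. Scube1, Scube3, the glypicans, Prkaca, Evc, Grem1, Osr1, Foxf2 and the markers Lbx1, Prrx1, Fgf8, Klf1 and Gata1 were named outside this rule, after their values were seen. The members and lists were chosen with earlier results of these data known.

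Replicate numbers come from the sample titles. The deviations from the group means correlated by 0.164, 0.472 and 0.287 between equal numbers of the GFP+ groups, so the numbers were taken to pair these arrays, a decision from the data since no label states a shared litter or day. The main fit did not use this pairing, which entered the tests only as the replicate block among the alternatives. The GFP- arrays did not pair with the control (0.065, 0.068 and -0.205) or the PAX3-FKHR GFP+ arrays (-0.237, 0.155 and -0.288). Sequences come from RefSeq tables of GRCm38.p6, and figures were drawn with matplotlib 3.10.9.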

Additional observations from a re-analysis of the deposited data

How the results depend on the processing

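For the members, 21 alternatives of each comparison covered normalization, trend, array weights, replicate block, thresholds, filters, test and arrays left out. The count of members called higher with PAX3-FKHR than in control GFP+ cells was 2, and 1 to 2 with an array left out, where Cdon was lost. With the replicate number as a block it was 2 on all 9 arrays (Hhip adjusted p = 0.0216, Cdon adjusted p = 0.0398) and 2 on the 6 arrays (0.0211 and 0.00687). On the 6 arrays compared, the block left 0 members lower in control GFP+ against GFP- cells and 0 in PAX3-FKHR GFP+ against GFP- cells, where the numbers do not pair the arrays. It changed no other call of a member. In control GFP+ against GFP- cells, a log2 fold change of at least 1 left 0 higher and 0 lower, and the local pooled error test 0 lower. In PAX3-FKHR GFP+ against GFP- cells, 0 were lower with quantile normalization, with a log2 fold change of at least 1 and whichever array was left out (0 to 0), and 2 were higher, Hhip and Gas1, with array weights and with only the 6 arrays compared.

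Differences that changed sign were small and not called. Boc with PAX3-FKHR against the control was -0.059 with array weights, -0.0314 with the local pooled error test, -0.0917 with the mean of all probe sets and -0.0753 to 0.10 with an array left out. Gas1 in control GFP+ against GFP- cells was 0.0672 with array weights and -0.36 to 0.0924 with an array left out (0.0924 without control GFP+ replicate 3). Smo in that comparison was -0.29 to 0.11 with an array left out (0.06 and 0.11 without control GFP+ replicate 1 or 2, 0.03 without GFP- replicate 2). The causes were not tested. Signals near or below the array medians, such as Hhip in GFP- cells, limit what can be read there.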
